A study of Drosophila melanogaster with 60 samples.

Results

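The subject is the juvenile hormone receptor pair and its best known target in the abdominal fat tissue of adult Drosophila melanogaster: Met (Methoprene-tolerant, FBgn0002723), gce (germ cell-expressed, FBgn0261703) and Kr-h1 (Krüppel homolog 1, FBgn0266450). The 3 genes were picked out by their FlyBase symbols, and all 3 were found among the 13969 genes in the tables. Fat tissue attached to the abdominal epidermis was dissected from young mated females, about 3 days old, that were then entrained for 5 days in cycles of 12 h of light and 12 h of dark. RNA was pooled from 10 flies per sample and sequenced after poly(A) selection. The groups were wild-type (w1118) flies held at 18 °C (24 libraries), flies carrying Clk-Jrk, backcrossed for 7 generations to w1118, at 25 °C (12 libraries), and wild-type flies at 25 °C (24 libraries). Clk-Jrk is a whole-animal allele of Clock (Clk), the activator of the circadian clock, so that no tissue was targeted. Wild-type flies were sampled at 12 zeitgeber times (ZT, hours after lights on) and Clk-Jrk flies at 6 of them, with 2 replicates per time, and the labels do not say whether the replicates came from separate cultures.

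Juvenile hormone is a sesquiterpenoid made by the corpora allata, glands beside the brain. Met and gce are paralogous bHLH-PAS proteins that bind the hormone, pair with the coactivator Taiman (tai) and switch on target genes. The zinc finger gene Kr-h1 is a direct target of that complex, which is why its RNA is commonly read as an index of hormone signalling. In larvae, Kr-h1 holds back metamorphosis by repressing genes of the ecdysone cascade. In adult females, the hormone is known for promoting yolk protein synthesis in the fat body and egg maturation in the ovary.

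Total estimated counts ran from 4923858 to 25133564 per library at 18 °C, from 10667764 to 28822277 in Clk-Jrk and from 5808864 to 46590109 in wild type at 25 °C. In replicate 1 of the 18 °C group, the values deposited for ZT 2 and for ZT 20 were the same for every gene. Both libraries were left out, so 22 of that group and 58 of 60 in all were used. The mutation itself cannot be read from the Clk level, since Clk-Jrk is a point mutation: Clk RNA ran from 1.33 to 5.77 TPM (abundance per transcript length, scaled so that libraries have equal sums) in Clk-Jrk and from 2.42 to 8.39 TPM in wild type at the same times. RNA of tim, a direct target of Clk, ran from 1.46 to 5.27 TPM in Clk-Jrk and from 9.37 to 126 TPM in wild type, without overlap. Fat body markers, led by the yolk protein genes, summed to between 19606 and 182170 TPM over all used libraries, and no marker of any of the 9 cell types listed was at 0 in every library of a group. In these bulk samples, fewer cells of a type and less RNA per cell cannot be told apart.

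Met lies on the X chromosome at 11616124 to 11621280 (plus strand, BDGP6.54 annotation), with 2 transcripts of 2 exons each. The paralog gce lies on the same chromosome at 15297766 to 15319074 (plus strand), with 4 transcripts of 10 exons each. An antisense RNA gene overlaps each end region of gce (asRNA:CR44429 and asRNA:CR44961), and strand was not stated for the counting, so that a share of antisense reads cannot be told apart. Kr-h1 lies on 2L at 6082603 to 6096498 (plus strand), with 2 transcripts of 4 exons each. The annotated gene CG45075 (6091412 to 6096498) lies on the same strand within the span of Kr-h1 and ends at the same position. The authors' counting gave CG45075 between 0 and 7.73% (median 1.25%) of the counts of both genes.

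All 3 genes were expressed at low to moderate levels in every used library, and no library had a count of 0. Per library, estimated counts ran from 54 to 837 for Met, from 234 to 3090 for gce and from 158 to 2725 for Kr-h1. In TPM, gce was above Met in each of the 58 libraries. The ratio of gce to Met had a median of 3.23 at 18 °C, 2.86 in Clk-Jrk and 2.81 in wild type at 25 °C, and its lowest value anywhere was 1.40. Kr-h1 was above Met in 21 of 22 libraries at 18 °C, 12 of 12 in Clk-Jrk and 24 of 24 in wild type at 25 °C. Kr-h1 and gce had no fixed order: Kr-h1 was the higher of both in 3 of 22 libraries at 18 °C, 4 of 12 in Clk-Jrk and 14 of 24 in wild type at 25 °C. The median ratio of Kr-h1 to gce was 0.646 at 18 °C, 0.825 in Clk-Jrk and 1.04 in wild type at 25 °C.

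**Figure D1:**
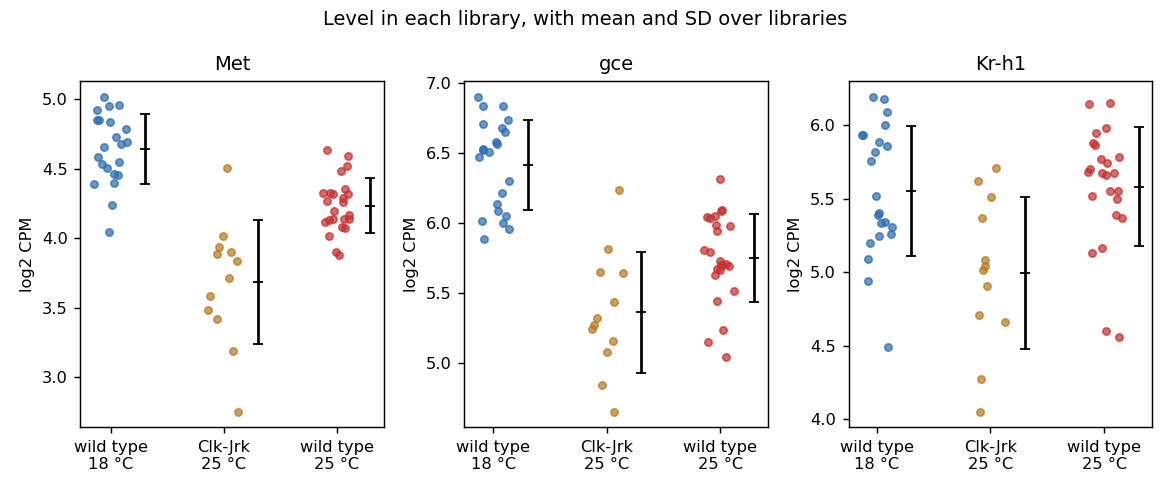
Level of Met, gce and Kr-h1 (log2 CPM, counts scaled to library size on a log2 scale) in each used library of wild type at 18 °C (n = 22), Clk-Jrk at 25 °C (n = 12) and wild type at 25 °C (n = 24); points are libraries, spread sideways for visibility, and bars are the mean and SD. The Clk-Jrk means lie lowest for each gene, and the 18 °C mean lies above the 25 °C wild-type mean for Met (4.64 against 4.24) and gce (6.42 against 5.75) but not for Kr-h1 (5.55 against 5.58).

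The first comparison asked how the level at 18 °C differed from that at 25 °C in wild-type flies. Both receptor genes rose at 18 °C, while their target Kr-h1 did not pass the test (edgeR, Benjamini-Hochberg adjusted p under 0.05). Over all 9348 genes tested, 48.5% passed in this comparison, 23.3% as higher and 25.2% as lower, so calls were common among genes at large. Met had 3.78 TPM in its lowest, 6.26 in its median and 8.78 in its highest library at 18 °C, against 2.95, 4.24 and 7.28 TPM at 25 °C. The ranges overlapped, with 5 of 22 libraries at 18 °C above the highest at 25 °C and 0 below the lowest. The fitted difference, averaged over the 12 times, was 0.43 ± 0.07 on the log2 scale (SE), or 1.35-fold higher at 18 °C (adjusted p = 2.66e-05). The 18 °C mean was higher at 11 of 12 times, the exception being ZT 6.

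For gce the groups stood further apart. Its lowest, median and highest libraries held 12.9, 20.7 and 27.3 TPM at 18 °C, against 9.30, 11.6 and 17.2 TPM at 25 °C. Every one of the 22 libraries at 18 °C was above the 25 °C median, and 15 of 22 were above the highest library at 25 °C. The difference was 0.69 ± 0.09 (SE, log2), or 1.61-fold higher (adjusted p = 2.15e-06), and its sign was the same at 12 of 12 times. Its size ranged over the day, from 0.04 at ZT 24 to 1.21 at ZT 16.

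Kr-h1 had 6.94, 12.2 and 19.6 TPM in its lowest, median and highest libraries at 18 °C, against 8.03, 12.1 and 16.7 TPM at 25 °C. In TPM the spread was wider at 18 °C on both sides: 5 of 22 libraries lay above the 25 °C range and 1 below it. In log2 CPM 2 lay above and 1 below, and the SD was 0.44 at 18 °C and 0.40 at 25 °C. The difference was 0.01 ± 0.10 (SE, log2; adjusted p = 0.983), with a higher mean at 18 °C at 5 of 12 times and a lower one at 7. The sign of so small a value changed with the processing, and it passed under none of the 23 alternatives.

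RNA of the ovary moved with temperature, although ovaries had been dissected away. Of the 18 ovary markers in the tables, such as the eggshell genes Vm32E and Cp15, 15 fell and 1, grk, rose at 18 °C. Their median difference was -2.97 (log2), against -0.02 over all genes tested. In replicate 1 alone 8 fell and in replicate 2 alone 0, where 1589 and 1437 of all 9348 genes were lower. Without the libraries of doubt, set aside for unusual RNA content, 10 fell. Those libraries included replicate 1 of wild type at 25 °C at ZT 2 and ZT 4, with 10719 and 15625 TPM of ovary markers. That fit is therefore no separate check of the ovary markers. Their summed level ran from 31.2 to 5922 TPM at 18 °C and from 222 to 15625 TPM at 25 °C. With the mean ovary marker level of each library as a covariate, the difference was 0.41 for Met (adjusted p = 0.0113) and 0.41 for gce (adjusted p = 0.0117). In that fit 770 of the 9348 genes tested passed, against 4532 without the covariate. The covariate itself differed between the groups, with a median of 1.25 at 18 °C and 3.98 in wild type at 25 °C. The gce difference was thus 0.69 without and 0.41 with the covariate. Within groups, over libraries that share depth and scaling, the correlation of gce with the ovary mean was negative throughout (Pearson r = -0.49 at 18 °C, n = 22; -0.32 in Clk-Jrk, n = 12; -0.54 in wild type at 25 °C, n = 24). For Met it was -0.27, 0.12 and 0.17 in the same groups, and for Kr-h1 -0.13, -0.11 and -0.51. How much of the gce difference goes with ovary RNA beyond this covariate was not tested. Of the other marker lists, 7 of 7 neuronal, 5 of 8 muscle and 5 of 7 haemocyte markers rose at 18 °C, where 23.3% of all genes were higher. Malpighian tubule markers were split, with 2 of 5 higher and 2 lower, and so were oenocyte markers, with 1 of 4 higher and 1 lower. Of fat body markers 2 of 9 rose and 1 fell (median -0.33). Of gut markers 1 of 9 rose, and of photoreceptor markers 1 of 7 fell. The part of these cell types was not tested.

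**Figure D2:**
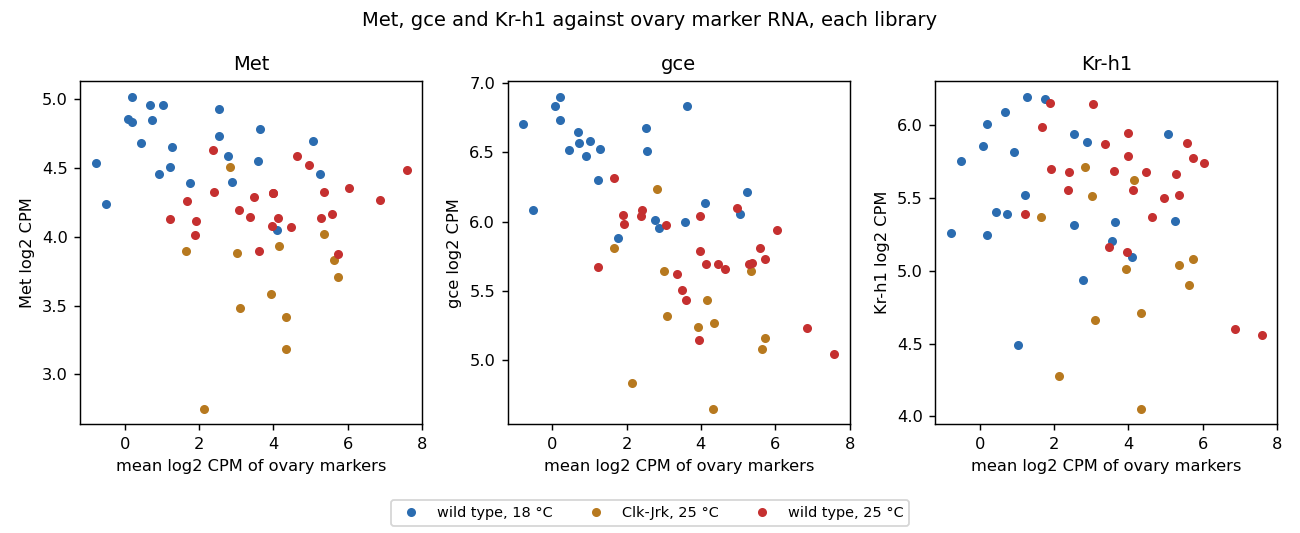
Level of Met, gce and Kr-h1 (vertical axes, log2 CPM) against the mean log2 CPM of 18 ovary markers (horizontal axes), each point being 1 used library, coloured by group. Wild type at 18 °C extends to the lowest ovary means (median 1.25), Clk-Jrk (4.04) and wild type at 25 °C (3.98) lie further right, and the gce points slope downward.

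The second comparison set Clk-Jrk against wild type at 25 °C, over the 12 wild-type libraries of its 6 sampling times, which also served the temperature comparison. Here all 3 genes fell, where 43.5% of all genes tested passed, 18.6% as higher and 24.9% as lower. Met had 1.02 TPM in its lowest, 2.69 in its median and 5.42 in its highest Clk-Jrk library, against 3.49, 4.18 and 5.53 TPM in wild type. Of the Clk-Jrk libraries, 10 of 12 were below the lowest wild-type value in TPM, but 7 of 12 in log2 CPM. The difference was -0.54 ± 0.10 (SE, log2; adjusted p = 0.000868), or 1.45-fold higher in wild type, and Clk-Jrk was lower at 6 of 6 times.

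Kr-h1 had 3.07, 7.29 and 12.5 TPM in its lowest, median and highest Clk-Jrk libraries, against 8.03, 13.0 and 16.5 TPM in wild type. In TPM all 12 Clk-Jrk libraries lay below the wild-type median and 9 below the wild-type range. In log2 CPM only 2 of 12 lay below that range. Its difference was -0.66 ± 0.13 (SE, log2; adjusted p = 0.00124), or 1.58-fold higher in wild type, with Clk-Jrk lower at 5 of 6 times. In Clk-Jrk, gce had 4.09, 7.51 and 15.2 TPM in its lowest, median and highest libraries, against 9.55, 11.4 and 17.2 TPM in wild type. Below the wild-type range in TPM lay 11 of 12 Clk-Jrk libraries, the other one being replicate 1 at ZT 14. In log2 CPM 4 of 12 lay below it. The gce difference was -0.37 ± 0.12 (SE, log2; adjusted p = 0.0234), or 1.29-fold higher in wild type, lower in Clk-Jrk at 5 of 6 times.

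The gap between genotypes was widest at the end of the night. At ZT 22, Clk-Jrk minus wild type was -1.79 for Kr-h1, -1.11 for gce and -1.07 for Met (log2 CPM). At ZT 14, shortly after lights off, it was 0.10 for Kr-h1, 0.15 for gce and -0.39 for Met. Both Clk-Jrk libraries at ZT 22 were low for Kr-h1 (3.15 and 3.07 TPM in replicates 1 and 2), against a wild-type mean of 15.1 TPM there. Without ZT 22, the level difference was -0.41 for Kr-h1 (adjusted p = 0.0480), -0.42 for Met (adjusted p = 0.0118) and -0.21 for gce (adjusted p = 0.264), so that gce no longer passed. The gce call was also lost without ZT 10 (adjusted p = 0.0549). The libraries of replicate 1 alone gave -0.50 for Met, -0.36 for gce and -0.54 for Kr-h1, none of them past the test (adjusted p = 0.0770, 0.323 and 0.264). Those of replicate 2 alone gave -0.57, -0.37 and -0.70, with Met and Kr-h1 past it (adjusted p = 0.0284 and 0.0400) and gce not (0.0712).

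**Figure D3:**
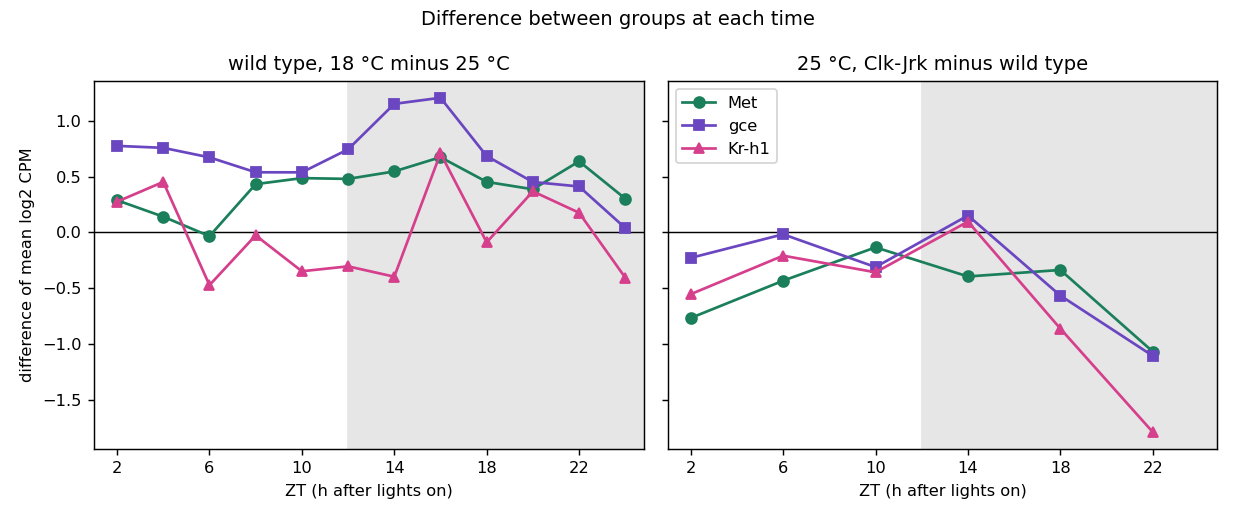
Difference of the mean log2 CPM at each ZT (h after lights on) for Met, gce and Kr-h1, as wild type at 18 °C minus 25 °C (left) and Clk-Jrk minus wild type at 25 °C (right); shading marks the dark phase. On the left gce stays above 0 and peaks at 1.21 at ZT 16, and on the right the lines end at their lowest, -1.07 to -1.79, at ZT 22.

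The scaling bore on the size of the genotype difference. The median over all genes was -0.08 (log2) with trimmed-mean scaling of the counts and -0.28 on log2(TPM + 1). On that TPM scale the differences were -0.60 for Met, -0.59 for gce and -0.84 for Kr-h1, and 629 genes were called higher in Clk-Jrk and 4550 lower, against 1735 and 2328 with the counts. The Clk-Jrk library with the smallest scaling factor (0.688) was replicate 2 at ZT 22, which also had the lowest Met value of all. Libraries of doubt in this comparison were that one, with little mitochondrially encoded RNA, and 3 of wild type, replicate 1, with high ovary (ZT 2), photoreceptor (ZT 10) or gut (ZT 14) markers. Without them the differences were -0.43 for Met (adjusted p = 0.0236), -0.37 for gce (0.0837) and -0.73 for Kr-h1 (0.00239). Of the marker lists, 6 of 7 neuronal, 5 of 8 muscle and 3 of 5 Malpighian tubule markers fell in Clk-Jrk. So did 5 of 18 ovary, 1 of 9 gut and 1 of 7 photoreceptor markers, where 24.9% of all genes tested were lower. The gut list had a median difference of -2.75 (log2). Of fat body markers 4 of 9 rose and of haemocyte markers 3 of 7, where 18.6% of all genes were higher. No oenocyte marker passed. The summed fat body markers ran from 116735 to 172874 TPM in Clk-Jrk and from 56617 to 161861 TPM in the 12 wild-type libraries. The part of tissue makeup in the fall of the 3 genes was not tested.

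The third question was whether the genes followed the day. No rhythm of any of the 3 passed in any group, by a 24 h cosine fitted across the libraries of a group. Flies had been kept in a pair of incubators with opposed light schedules, and the labels do not say which library came from which. A difference between incubators and one between day and night therefore cannot be told apart. With a step between ZT 12 and ZT 14 as an added term, the adjusted p of Kr-h1 was 0.36 at 18 °C, 0.131 in Clk-Jrk and 0.908 in wild type at 25 °C. At 18 °C the fitted amplitudes (peak minus mean, log2 CPM) were 0.19 ± 0.07 for Met, 0.25 ± 0.09 for gce and 0.34 ± 0.12 for Kr-h1 (SE, n = 22). The receptor genes had their fitted peaks early in the night, Met at ZT 16.2 ± 1.29 h and gce at ZT 15.0 ± 1.32 h, and Kr-h1 had its own late in the night, at ZT 21.1 ± 1.29 h. Their adjusted p-values were 0.304 for Met, 0.288 for gce and 0.175 for Kr-h1 (unadjusted 0.0415, 0.0366 and 0.0127). In this group 193 of 9348 genes passed, or 2.06%, and 15.2% had an unadjusted p under 0.05. Kr-h1 passed there without replicate 1 at ZT 24, a library with high photoreceptor markers (adjusted p = 0.0455).

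The profile of Kr-h1 at 18 °C was uneven. Both libraries at ZT 14 were low, with a mean of 7.95 TPM, and both at ZT 16 were high, with a mean of 18.8 TPM. At ZT 22 the mean was again high (18.7 TPM). Of the 10 times with both replicates, the SD within a time was 0.32 log2 units for Kr-h1, against 0.44 over all libraries. For Met and gce at 18 °C the within-time SD (0.25 and 0.30) was close to the SD over all libraries (0.25 and 0.32), replicate 1 having the higher mean level in both (23.3 ± 3.51 TPM for gce in replicate 1, n = 10, and 17.2 ± 4.39 TPM in replicate 2, n = 12; SD).

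**Figure D4:**
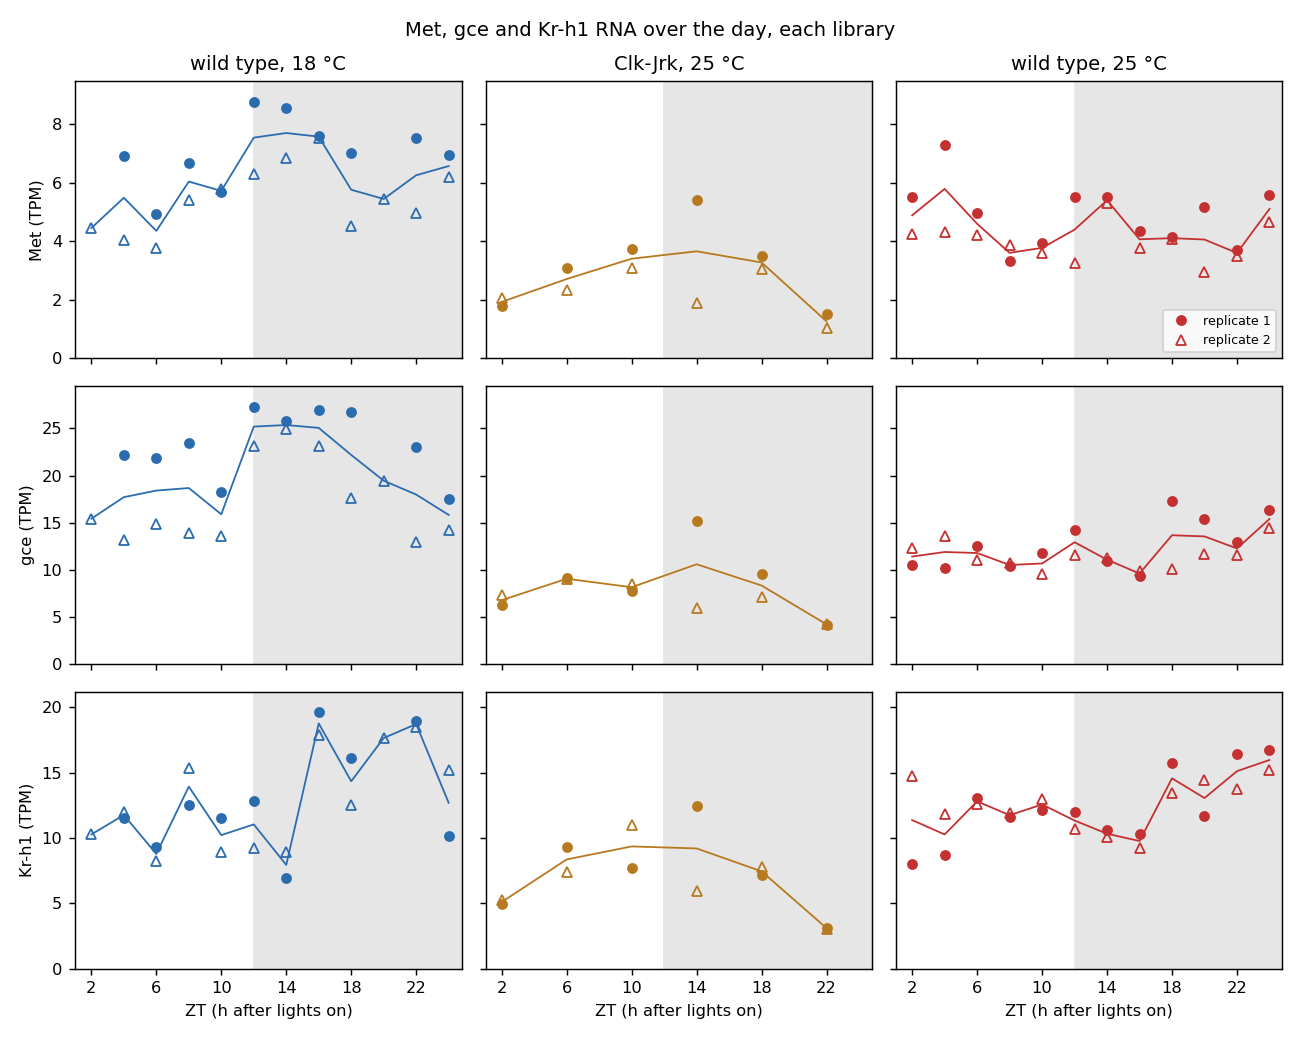
TPM of Met, gce and Kr-h1 (rows) by ZT (h after lights on) in wild type at 18 °C, Clk-Jrk at 25 °C and wild type at 25 °C (columns); filled circles are replicate 1, open triangles replicate 2, lines join the means and shading marks the dark phase. In Clk-Jrk each gene has its lowest mean at ZT 22, and at 18 °C Kr-h1 steps up between ZT 14 (7.95 TPM) and ZT 16 (18.8 TPM).

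In wild type at 25 °C the profiles were flat within the scatter. The amplitudes were 0.02 ± 0.06 for Met, 0.12 ± 0.09 for gce and 0.14 ± 0.12 for Kr-h1 (SE, n = 24), with adjusted p-values of 0.977, 0.696 and 0.694. The SD within a time was nearly as large as that over all libraries: 0.19 and 0.20 for Met, 0.31 and 0.31 for gce, 0.39 and 0.40 for Kr-h1. In this group 37 genes passed, or 0.396%, and 8.92% had an unadjusted p under 0.05. For the members the unadjusted p was 0.943, 0.364 and 0.358. Of 8 core clock genes listed for reference, 4 passed in this group, including vri (adjusted p = 6.71e-05). The 2 lowest Kr-h1 libraries at 25 °C were replicate 1 at ZT 2 and ZT 4 (8.03 and 8.73 TPM), which also held the highest sums of ovary markers (10719 and 15625 TPM).

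In Clk-Jrk the fitted peaks fell before or near lights off. Kr-h1 had an amplitude of 0.55 ± 0.14 with a peak at ZT 10.6 ± 1.0 h, Met 0.44 ± 0.14 at ZT 11.5 ± 1.20 h and gce 0.30 ± 0.17 at ZT 10.4 ± 2.12 h (SE, n = 12). The Clk-Jrk profile of Kr-h1 rested mainly on low values at ZT 22 (3.15 and 3.07 TPM in replicates 1 and 2) and ZT 2 (4.93 and 5.29 TPM). At the other times the libraries lay between 5.93 and 12.5 TPM. Adjusted p-values were 0.303 for Kr-h1, 0.303 for Met and 0.422 for gce (unadjusted 0.00382, 0.0157 and 0.137). By edgeR 0 genes passed in Clk-Jrk (0%), though 1435, or 15.4%, had an unadjusted p under 0.05, and DESeq2 called 231. Kr-h1 was among the DESeq2 calls (adjusted p = 0.0269), whereas Met was given no adjusted p there.

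The differences in rhythm were tested directly. Between 18 °C and 25 °C no member passed (adjusted p = 0.399 for Met, 0.454 for gce and 0.700 for Kr-h1), and 11 genes, 0.118%, did so over the whole table, with 13.9% at an unadjusted p under 0.05. Between Clk-Jrk and wild type the adjusted p was 0.406 for Kr-h1, 0.507 for Met and 0.521 for gce, where 0 genes (0%) passed in edgeR, 908 (9.71%) had an unadjusted p under 0.05 and DESeq2 called 27. The fitted Kr-h1 peak in Clk-Jrk minus that in wild type at 25 °C was -9.72 ± 3.27 h (SE), the wild-type amplitude being 0.14 ± 0.12. By replicate the fitted Clk-Jrk peaks were close (ZT 11.1 and 10.1), while those of wild type at 25 °C were at ZT 17.1 and ZT 0.17.

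The 3 genes did not move as 1 unit from library to library. After the mean of each group was taken off, Met and gce correlated at r = 0.61 over 58 libraries, gce and Kr-h1 at 0.49 and Met and Kr-h1 at 0.21. With the mean of each group and ZT taken off, the values were 0.58, 0.50 and -0.02. By the first measure the gene most like Met was ens, which encodes a microtubule-associated protein (r = 0.86). That most like gce was CAP, an adaptor gene (0.86), and that most like Kr-h1 was svp, an orphan nuclear receptor gene (0.73), followed by noc (0.73) and wb (0.72). By the second, Met was most like the kinase gene Akt (0.85), gce again like CAP (0.89), and Kr-h1 like the zinc finger gene salm (0.86), followed by Sox102F, svp and noc at 0.83 each. All these points share library depth and tissue makeup, so the r values describe the libraries only.

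Around the receptors, the genes that make juvenile hormone precursors showed small shifts. In Clk-Jrk, where 18.6% of all genes tested were higher and 24.9% lower, 2 of 6 synthesis genes rose and 0 fell. These were Idi, the isopentenyl diphosphate isomerase (0.27 ± 0.08, adjusted p = 0.0162), and Fpps, the farnesyl diphosphate synthase (0.18 ± 0.07, adjusted p = 0.0465; log2, SE). Without ZT 22, 0 of the 6 passed, where 3429 of all 9348 genes did. On the TPM scale 0 rose and 2 fell, where 629 of all genes were higher and 4550 lower. The direction of the list turned with the scaling, as calls over all genes also shifted toward lower. At 18 °C, 0 rose and 2 fell, Mvd (-0.66 ± 0.12) and Pmvk (-0.46 ± 0.13), both of the mevalonate pathway. There 23.3% of all genes tested were higher and 25.2% lower. With the ovary covariate 0 of the 6 passed, where 770 of all 9348 genes did. In replicate 2 alone 2 rose and 1 fell, where 1529 genes were higher and 1437 lower. The last-step methyltransferase jhamt, an enzyme of the corpora allata, had a median of 1.24 TPM at 18 °C (highest 6.24), 0.325 TPM in Clk-Jrk (highest 5.29) and 0.557 TPM in wild type at 25 °C (highest 7.71), and did not pass in either comparison.

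Among the genes that break juvenile hormone down, the epoxide hydrolases Jheh1 and Jheh2 had much larger shifts than the receptors. Jheh1 averaged 567 ± 129 TPM in Clk-Jrk and 120 ± 59.8 TPM in wild type at the same times (SD, n = 12 each), a difference of 2.60 ± 0.22 (SE, log2; adjusted p = 1.04e-06). Jheh2 averaged 503 ± 59.8 TPM in Clk-Jrk and 208 ± 41.2 TPM in wild type, a difference of 1.58 ± 0.10 (adjusted p = 6.32e-08). The esterase gene Jhe also rose (1.78 ± 0.44, adjusted p = 0.00528), at under 1 TPM on average in both, while Jheh3 fell (-0.48 ± 0.18, adjusted p = 0.0405). Of the 4 tested members of this list, 3 rose and 1 fell in Clk-Jrk, where 18.6% of all genes were higher and 24.9% lower. At 18 °C, 0 rose and 1, Jheh2, fell (-0.45 ± 0.10), where 23.3% were higher and 25.2% lower. In each replicate alone 2 rose in Clk-Jrk and 0 fell. Over all 9348 genes, 601 were higher in replicate 1 alone and 1247 in replicate 2 alone. The fall of Jheh3 was also lost without ZT 2, ZT 6 or ZT 14, without the count filter, with the ovary covariate and without the libraries of doubt. The fifth listed gene, Jhedup, was too low to be tested. Jhe was also the 1 member of the list with a rhythm that passed, at 18 °C (adjusted p = 0.00167), where 2.06% of all genes passed. Its fitted amplitude there was 1.32 ± 0.18 with a peak at ZT 2.2. In wild type at 25 °C it was similar, 1.21 ± 0.26 at ZT 1.6 (SE), without passing. The median level of Jhe was low, 0.49 TPM at 18 °C and 0.47 TPM in wild type at 25 °C.

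Of 8 partners and cofactors of the receptors, 3 fell in Clk-Jrk and 0 rose, where 43.5% of all genes passed and 24.9% were lower. Taiman, the coactivator of both receptors, averaged 2.79 ± 1.69 TPM in Clk-Jrk and 5.83 ± 0.84 TPM in wild type (SD, n = 12 each), a difference of -0.91 ± 0.15 (SE, log2; adjusted p = 0.00034). The nuclear receptor genes ftz-f1 (-1.28 ± 0.23) and usp (-0.56 ± 0.10) fell with it. In replicate 1 alone 0 of the 8 fell, where 737 of all 9348 genes were lower. In replicate 2 alone 5 fell, where 1360 genes were lower. At 18 °C, 1 rose, Chd64, and 3 fell, ftz-f1, usp and Fkbp39, where 23.3% of all genes were higher and 25.2% lower. There tai did not pass (0.18 ± 0.08, adjusted p = 0.0564). With the ovary covariate, 0 of the 8 passed at 18 °C, where 770 of all 9348 genes did.

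In Clk-Jrk, where 18.6% of all genes tested were higher and 24.9% lower, 3 of 12 genes linked in flies to juvenile hormone or Kr-h1 rose. A further 4 fell. Higher were the yolk protein genes Yp1 (0.84 ± 0.24) and Yp2 (0.65 ± 0.25) and the lipase gene bmm (0.45 ± 0.13). Lower were the insulin receptor gene InR (-1.34 ± 0.23), Eip93F (-0.97 ± 0.24), a factor of adult specification, br (-0.81 ± 0.26), which acts at metamorphosis, and JhI-21 (-0.55 ± 0.14), named for its induction by the hormone. On the TPM scale 1 rose and 8 fell, where 629 of all 9348 genes were higher and 4550 lower. In replicate 1 alone 3 rose and 0 fell, where 601 genes were higher and 737 lower. Without the libraries of doubt 1 rose and 2 fell, where 1406 genes were higher and 1505 lower. At 18 °C, 4 rose (Eip93F, bmm, InR and JhI-26) and 2 fell (JhI-21 and RNaseZ), where 23.3% of all genes were higher and 25.2% lower. With the ovary covariate 0 of the 12 passed, where 770 of all 9348 genes did. The median of the list was -0.05 in Clk-Jrk, against -0.08 over all genes tested, and -0.25 at 18 °C, against -0.02.

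The ecdysone response list, whose steroid hormone acts with and against juvenile hormone in insects, was lower almost throughout in Clk-Jrk. Of 12 genes, 11 fell and 0 rose, where 24.9% of all genes tested were lower and 18.6% higher. The median of the list was -1.08, against -0.08 over all genes. The receptor gene EcR averaged 2.09 ± 1.17 TPM in Clk-Jrk and 6.01 ± 0.84 TPM in wild type (SD, n = 12 each), a difference of -1.34 ± 0.13 (SE, log2; adjusted p = 5.68e-06). The early gene Eip75B averaged 4.42 ± 2.57 TPM in Clk-Jrk and 11.0 ± 1.36 TPM in wild type, a difference of -1.15 ± 0.14 (adjusted p = 3.1e-05). Hr4 (-1.36 ± 0.22) and ImpL2, a secreted insulin antagonist (-1.01 ± 0.21), were also lower, and Eip78C had -1.20 ± 0.48 without passing (adjusted p = 0.056). In replicate 1 alone 4 of the 12 fell, in replicate 2 alone 8, and without the libraries of doubt 9. Over all 9348 genes, 737, 1360 and 1505 were lower in these fits, in the same order. At 18 °C, 1 rose (Eip93F) and 3 fell (EcR, usp and ftz-f1), where 23.3% of all genes were higher and 25.2% lower. Under the ovary covariate 0 of the 12 passed, where 770 of all 9348 genes did. The ecdysone list shares usp and ftz-f1 with the partner list and br and Eip93F with the linked genes. Other lists overlap too, such as partners and bHLH-PAS genes (tai and cyc) or linked genes and fat body markers (Yp1, Yp2 and Yp3). Counts of the lists are therefore not separate.

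**Figure D5:**
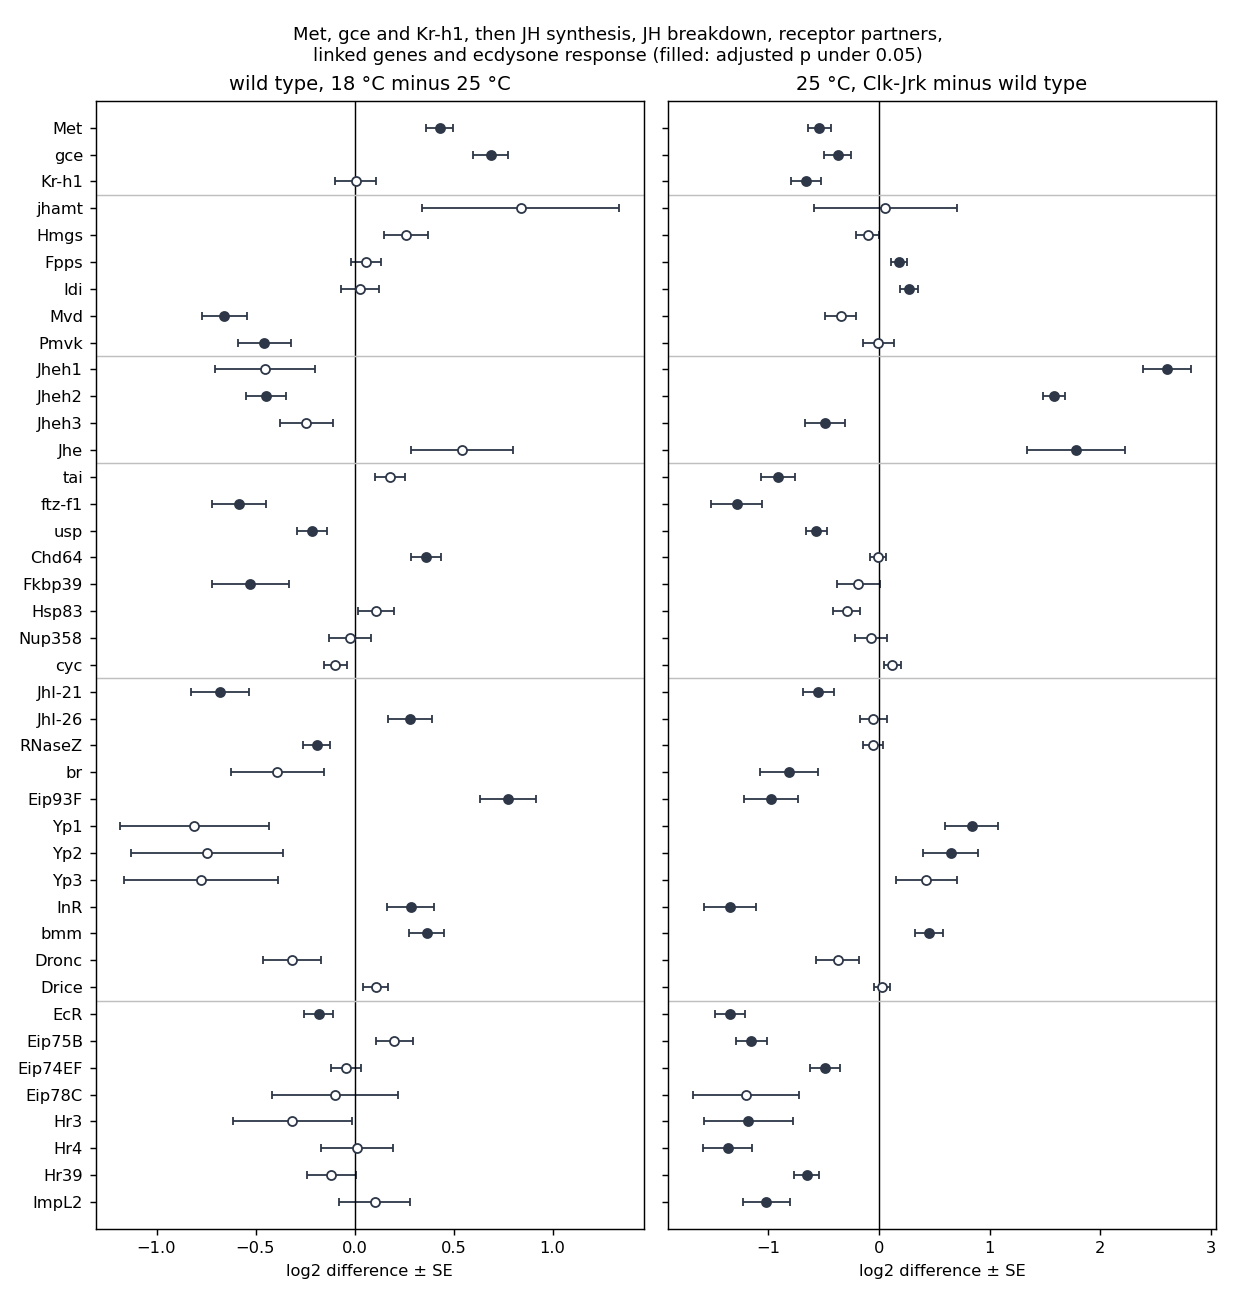
Fitted log2 differences with SE for Met, gce and Kr-h1 (top) and the tested genes for juvenile hormone (JH) synthesis, JH breakdown, receptor partners, linked genes and the ecdysone response, each gene shown once, for wild type at 18 °C minus 25 °C (left) and Clk-Jrk minus wild type (right); filled points have an adjusted p under 0.05 and the horizontal scales differ. On the right Jheh1 lies far to the right (2.60), and the ecdysone genes lie to the left of 0.

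Within the bHLH-PAS family, to which Met and gce belong, 9 of 11 genes could be tested. In Clk-Jrk 7 of the 9 fell and 0 rose, where 24.9% of all genes tested were lower and 18.6% higher. Beside Met, gce and tai, those that fell were sima (-0.48 ± 0.15), the HIF-alpha homolog, its partner tgo (-0.31 ± 0.08), trh (-0.51 ± 0.17) and sim (-1.23 ± 0.42). Clk itself (-0.21 ± 0.15) and its partner cyc (0.12 ± 0.08) did not pass. The count was less stable than that of the ecdysone list. Of the 9, 2 fell without ZT 22 and 4 without ZT 2, where 1921 and 1769 of all 9348 genes were lower. In replicate 2 alone and without the libraries of doubt 3 fell, where 1360 and 1505 genes were lower. In replicate 1 alone 0 fell, where 737 genes were lower, against 2328 in the main fit. At 18 °C, 4 rose (gce, Met, sima and trh) and 2 fell (Clk and sim), where 23.3% of all genes were higher and 25.2% lower. Under the ovary covariate 2 rose and 1 fell, where 447 of all 9348 genes were higher and 323 lower.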

How the data were processed

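RNA of dissected abdominal fat tissue was measured in 60 libraries of poly(A) RNA. Per the submitters' processing notes, reads were quantified with kallisto 0.46.2, and the authors deposited estimated counts and TPM per gene. No source used here gives the transcriptome release. Of the nonzero counts, 80.5% lay within 0.001 of a whole number. Here estimated counts were rounded and 9348 genes kept by filterByExpr in edgeR 4.0.16 (R 4.3.3), with TMM scaling. The level fit held 1 mean for each ZT of each group, contrasted over shared times. A 24 h cosine and sine pair tested rhythm, and its interactions with group tested rhythm differences, all by quasi-likelihood tests with Benjamini-Hochberg adjusted p under 0.05 over all genes. Amplitudes come from least-squares fits of log2 CPM (prior count 2). No fit imputed a sample. Alternatives used DESeq2 1.42.0 and limma 3.58.1 (limma-trend on log2(TPM + 1)), and list counts were added to the alternatives after seeing the data. The fits were tested on simulated data. Symbols and positions come from BDGP6.54 (Ensembl release 115).

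The 3 genes were set by symbol, with no threshold on a value, but they, the gene lists and the libraries of doubt were chosen with earlier results of these data known. From the lists, genes that passed in a comparison could be named, and jhamt, Eip78C, cyc, Jhedup and other listed genes that did not pass are named to complete their lists. Of the synthesis list, 1 gene is not reported here. Genes most like each member were the 5 with the highest positive r.

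Total estimated counts per library ranged from 4923858 to 46590109. P-values measure the spread between these samples, which may be technical.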

Additional observations from a re-analysis of the deposited data

How the results depend on the processing

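For Met and gce, 23 of 23 alternatives kept the higher level at 18 °C, with differences of 0.37 to 0.47 for Met and 0.41 to 0.82 for gce. Kr-h1 turned negative there with median-ratio size factors (-0.000181), in DESeq2 (-0.000726), without the count filter (-0.0039), with a replicate block (-0.0115), with the ovary covariate (-0.18), without libraries of doubt (-0.059) and with the identical pair kept once as ZT 20 (-0.0161). Leaving out a replicate or a time gave -0.119 to 0.046, and none passed. In Clk-Jrk, the same gave -0.60 to -0.42 for Met, -0.48 to -0.21 for gce and -0.80 to -0.41 for Kr-h1, and 14, 10 and 14 of 15 alternatives stayed past the threshold. Without libraries of doubt gce did not pass (-0.37). The Kr-h1 rhythm passed at 18 °C without them (adjusted p = 0.0455) and in Clk-Jrk in DESeq2 (adjusted p = 0.0269). The cause was not tested.

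Genes called for the level at 18 °C were 770 with the ovary covariate and 2966 to 4606 when a replicate or a time was left out, and for Clk-Jrk 1338 to 4125. Rhythm calls at 18 °C were 514 in DESeq2, 567 with the replicate block, 292 without libraries of doubt, 43 with a step between ZT 12 and ZT 14 and 0 with time as a factor (0 to 279 by leaving out). At 25 °C they were 103 in DESeq2, 71 unfiltered, 18 with the ovary covariate, 20 without libraries of doubt, 3 with the step and 0 with time as a factor (3 to 37), and in Clk-Jrk 231 in DESeq2 and 2 with time as a factor (0 to 2). Temperature differences in rhythm numbered 46 in DESeq2, 51 unfiltered, 7 on the TPM scale, 23 with the ovary covariate, 3 without libraries of doubt, 3 with the pair as ZT 2, and 0 with the step or the factor (0 to 12), and genotype differences 27 in DESeq2 (0 to 3). For each gene, the mean of replicate 1 over all times was taken as a deviation from the mean of its group. Over 9348 genes these deviations correlated at r = 0.64 between 18 °C and wild type at 25 °C. The r was -0.08 between 18 °C and Clk-Jrk and 0.12 between Clk-Jrk and wild type at 25 °C. Replicate 1 thus deviated alike in the wild-type groups, and in Clk-Jrk little like either. The labels do not say what libraries of the same replicate number share, and no pairing was assumed. The replicate block gave 5539 level calls at 18 °C and 4210 in Clk-Jrk and changed no call of the 3 genes. The lowest depth, 54 estimated counts for Met, limits single libraries.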
